A study of Sus scrofa with 15 samples.

Results

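Heat shock proteins and their partners are the chaperones that bind unfolded proteins. HSP70 proteins hold and release clients in a cycle driven by ATP, J-domain proteins (the DNAJ genes) bring clients and switch that cycle on, and BAG proteins and HSP110 (HSPH1) help the client leave. HSP90 matures kinases and receptors, small heat shock proteins (HSPB genes) keep damaged proteins soluble, and HSP60 with its lid HSP10 folds proteins inside mitochondria. The endoplasmic reticulum, through which a cartilage cell sends its collagen and aggrecan, has its own HSP70 (BiP, encoded by HSPA5) with its own J-domain partners.

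These genes were taken from the pig expression table by name: every row whose symbol starts with HSPA, HSPB, HSPD, HSPE, HSPH, HSP90, DNAJ, or BAG followed by a number. The rule found 62 of 25322 rows. They are 10 HSP70 and HSP110 genes, 3 HSP90 genes, 2 genes of the HSP60 and HSP10 pair, 7 small heat shock proteins, 34 DNAJ genes (4 DNAJA, 9 DNAJB and 21 DNAJC), 4 BAG genes and 2 partners whose names begin with HSPB. Of the 62, 46 had a symbol in the reference gene list, the same one for 45. The exception matters throughout: the row named HSPA1B in the table is HSPA8, the constitutive cytosolic HSP70, in the reference list, and is written here as the HSPA1B/HSPA8 entry. No sequence could be shown for these genes, because no sequence table was used here.

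Total RNA was sequenced from sorted cells of the knee of adult pigs, 3 libraries per group, each library from a different pig. Cartilage cells were sorted by integrin alpha 4 (ITGA4) and the BMP receptor BMPR1B into 4 chondrocyte populations, each from pigs 2, 5 and 6: those with both proteins (ITGA4+BMPR1B+), those with only one of them (ITGA4+BMPR1B- or ITGA4-BMPR1B+) and those with neither (ITGA4-BMPR1B-). The fifth group was CD146+ cells sorted from synovium of pigs 3, 4 and 5, labelled as pericytes and set against the chondrocytes. They were described as sorted without CD45 and CD31, markers of blood and endothelial cells. No strain, sex or treatment separates the groups in the labels, and all tissue was digested with enzymes before sorting. Chondrocytes and CD146+ cells therefore differ in tissue and, except for pig 5, in animal.

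Messenger RNA was a small part of each library, 2.03 to 22.1% of the deposited signal, and the remainder was structural and mitochondrial RNA. The 4 chondrocyte libraries of pig 2 stood apart at 2.03 to 4.15% messenger RNA, against 11.7 to 22.1% in the 8 of pigs 5 and 6, and the CD146+ libraries held 2.95 to 3.78%. Values here are signal rescaled to messenger RNA, summing to 1e+06 per library on average. They are not known to be corrected for gene length, so levels are compared between libraries and never between genes, and read depth is unknown. All 10 cartilage markers were higher in chondrocytes, as that label implies. Endothelial markers summed to 3.64 to 151 in chondrocytes, against 4318 to 9679 in the CD146+ libraries (all 7 that could be tested were lower in chondrocytes). PECAM1, which encodes the CD31 that the sort was to leave out, lay at or under 13.9 in chondrocytes and at 533, 622 and 344 in the CD146+ libraries. The pericyte list summed to 518 to 1627 in chondrocytes and 167 to 337 in CD146+ cells. Of its 7 tested genes ACTA2 and RGS5 were lower in chondrocytes and CSPG4 was higher. Macrophage markers summed to 122 to 374 in chondrocytes and 62.8 to 97.1 in CD146+ cells, with CD14 and LYZ higher in chondrocytes among 3 tested and the defining marker CD163 under 1 in every library. The part of RNA from these cell types in the differences that follow was not tested. In bulk libraries, fewer cells of a type and less RNA per cell cannot be told apart.

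Of the 62 genes, 45 exceeded a value of 5 in at least 3 libraries and were tested. The other 17 were HSPA1A, HSPA4L, HSPA12A, HSP90B1, HSPB3, HSPB7, HSPB9, HSPB11, HSPBAP1, DNAJA3, DNAJC1, DNAJC6, DNAJC12, DNAJC15, DNAJC17, DNAJC24 and DNAJC27. HSPB3 and HSPB9, and HSP90B1, the HSP90 of the endoplasmic reticulum, were listed at the lowest value of the table in 14 of 15 libraries and above it only in ITGA4+BMPR1B- cells of pig 2. A gene listed at that value may be one the annotation failed to capture.

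The first comparison set chondrocytes, as the mean of the 4 populations in each of 3 pigs, against the 3 CD146+ libraries. Chondrocytes carried more RNA for DNAJB9, DNAJC3, DNAJB12, HSPB8, HSPE1 and DNAJC4 among others, and less for 3 cytosolic HSP70 and HSP110 genes, of which HSPA4 and HSPH1 change sign on the values as deposited, for the J-domain genes DNAJA1 and DNAJB5 and for HSPB1. In all, 8 of the 45 genes were higher (17.8%) and 10 lower (22.2%) at an adjusted p under 0.05 (limma, Benjamini-Hochberg over 9959 genes). Among all genes tested, 17.1% were higher and 17.3% lower, so the chaperones were called about as often as other genes, and it is the members called, not their number, that are described here. The median difference was 0.09 on the log2 scale over the 45 genes and -0.02 over all genes.

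**Figure D1:**
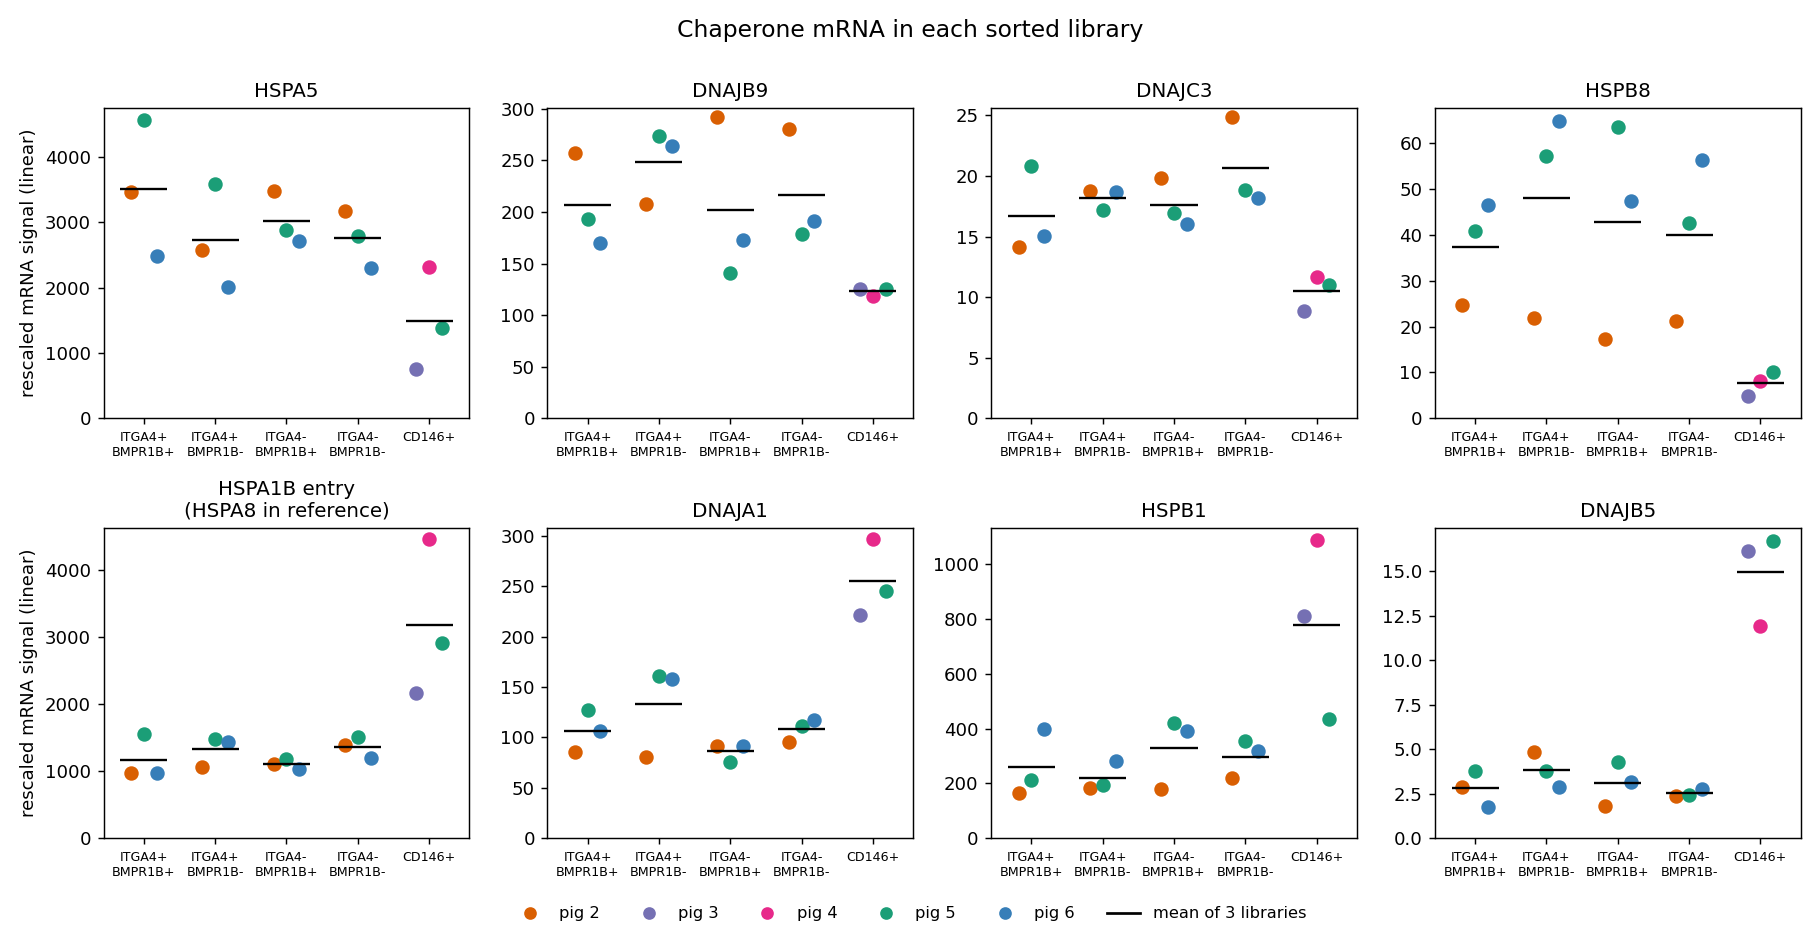
Rescaled messenger RNA signal (linear axis from 0) of 8 chaperone genes in the 4 chondrocyte populations and in CD146+ cells; each point is 1 library, coloured by pig, and each line the mean of 3. The upper genes sit higher in chondrocytes, although for HSPA5 the CD146+ library of pig 4 (2322) lies among the chondrocytes. The lower genes sit higher in CD146+ cells, although on the values as deposited DNAJA1 in both ITGA4+ populations and the HSPA1B/HSPA8 entry in ITGA4+BMPR1B- cells lie above them. HSPA5 did not pass the test in the pooled comparison.

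Among the chaperones of the endoplasmic reticulum, 3 of 9 tested genes were higher and 1 was lower, a grouping by compartment drawn up after the values were seen and given as a description. DNAJB9, a BiP partner that also restrains the stress sensor IRE1, ranged from 141 to 293 with a median of 201 in chondrocytes, against 125, 119 and 126 in the CD146+ libraries of pigs 3, 4 and 5. No chondrocyte library reached down to the CD146+ level. The difference was 0.79 ± 0.18 on the log2(value + 1) scale (SE, adjusted p = 0.019, limma). DNAJC3, which brings clients to BiP and inhibits the kinase PERK, spanned 14.2 to 24.9 (median 18.4) in chondrocytes, against 8.84, 11.7 and 10.99 in CD146+ cells. The libraries again did not overlap, with a difference of 0.74 ± 0.18 (adjusted p = 0.020, limma). DNAJB12, a membrane J-domain protein that faces the cytosol, spanned 15.3 to 30.3 (median 24.7) in chondrocytes and lay at 12.4, 13.2 and 14.8 in CD146+ cells, which differ by 0.76 ± 0.16 (adjusted p = 0.014, limma). All 3 lost the call with the messenger RNA total alone as scale, at 0.35 for DNAJB9 (adjusted p = 0.18), 0.33 for DNAJC3 (0.21) and 0.35 for DNAJB12 (0.18).

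HSPA5 itself did not pass. It lay between 2005 and 4564 (median 2835) in chondrocytes, against 756, 2322 and 1375 in the CD146+ libraries of pigs 3, 4 and 5. Only pig 4 overlapped the chondrocytes. The difference was 1.13 ± 0.42 (adjusted p = 0.080, limma), with a 95% interval of 0.12 to 2.13, and without the pig 4 library it was 1.52 (adjusted p = 0.026). With 15 single libraries in place of pig means it was 1.13 (adjusted p = 0.0068), and with the pig as a random block added 1.18 (adjusted p = 0.0032). Without the block, here and below, that fit counts the 4 chondrocyte libraries of 1 pig as independent and can overstate the evidence. DNAJB11, a soluble BiP partner, likewise did not pass, at 23.5 to 61.0 in chondrocytes and 18.6, 15.9 and 27.01 in CD146+ cells, a difference of 0.81 ± 0.29 (adjusted p = 0.075, limma). It passed without the pig 5 CD146+ library, at 1.01 (adjusted p = 0.048), with 15 single libraries (0.81, adjusted p = 0.035), and with the pig as a random block among these (0.85, adjusted p = 0.012). DNAJC14, a J-domain protein of the endoplasmic reticulum membrane that helps receptors leave it, was the one lower gene, at 4.10 to 35.4 in chondrocytes and 32.6, 59.8 and 40.6 in CD146+ cells (-1.45 ± 0.45, adjusted p = 0.047, limma, and 0.064 with 15 single libraries). HSPA13, DNAJB14 and DNAJC10 had differences of 0.08, -0.22 and 0.40 and did not pass.

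Of 7 tested HSP70 and HSP110 genes 0 were higher and 3 lower in chondrocytes, all 3 cytosolic, and 2 of them, HSPA4 and HSPH1, turned to 0.097 and 0.19 on the values as deposited. The HSPA1B/HSPA8 entry spanned 968 to 1559 (median 1195) in chondrocytes, against 2167, 4461 and 2917 in the CD146+ libraries of pigs 3, 4 and 5. Every chondrocyte library lay under every CD146+ library, and the difference was -1.31 ± 0.30 (adjusted p = 0.017, limma). HSPA4, a nucleotide exchange factor for HSP70, spanned 19.1 to 31.1 in chondrocytes and lay at 44.3, 76.4 and 49.95 in CD146+ cells (-1.09 ± 0.26, adjusted p = 0.020). HSPH1, the HSP110 that with HSP70 dissolves aggregates, spanned 11.5 to 24.6 in chondrocytes and lay at 29.7, 51.6 and 32.4 in CD146+ cells (-0.95 ± 0.29, adjusted p = 0.047). These 3 genes had no overlapping library and were highest in pig 4, whose CD146+ library gave 1.74% of its messenger signal to the 62 genes, against 1.35% and 0.933% in the other 2. Reads of near-identical HSP70 copies can be split between entries. A row named HSP70.2 in the table, which the reference list gives as HSPA1L and the name rule does not take, lay at 227 to 824 in chondrocytes and at 583, 2474 and 582 in CD146+ cells (-1.09 ± 0.58, adjusted p = 0.19, limma). HSPA1A stayed under the filter, with 6.75 as its highest value.

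Among the cytosolic J-domain genes DNAJA1 and DNAJB5 were lower in chondrocytes. DNAJA1, a J-domain partner of cytosolic HSP70, spanned 75.2 to 161 (median 101) in chondrocytes, against 222, 297 and 245 in CD146+ cells. The groups did not overlap (-1.25 ± 0.20, adjusted p = 0.0050, limma). DNAJB5, a relative of DNAJB1, spanned 1.79 to 4.84 in chondrocytes, against 16.2, 11.9 and 16.7 in CD146+ cells (-1.99 ± 0.21, adjusted p = 0.0011, limma). Every chondrocyte value lay under the filter of 5, so DNAJB5 entered the tests only through the CD146+ libraries. Its lack of overlap follows from that filter. DNAJB1 itself, the classic heat-inducible HSP40, lay at 82.1 to 128 in chondrocytes and 101, 115 and 120 in CD146+ cells, a difference of -0.12 with a 95% interval of -0.54 to 0.31. DNAJB6, which holds back protein aggregation, lay at 29.8 to 64.8 in chondrocytes and 36.3, 34.0 and 41.7 in CD146+ cells (0.22 ± 0.18). DNAJA2, DNAJA4, DNAJB2, DNAJB4, DNAJC2, DNAJC7 and DNAJC21 did not pass either. Of the BAG genes, BAG5 was lower, at 34.0 to 72.6 in chondrocytes and 67.6, 75.3 and 108 in CD146+ cells (-0.82 ± 0.22, adjusted p = 0.029, limma). BAG1 lay at 29.3 to 56.5 in chondrocytes and 34.0, 31.7 and 34.7 in CD146+ cells (0.20 ± 0.18) and did not pass. BAG3, the partner of HSPB8 in clearing misfolded proteins, lay at 20.7 to 41.5 and at 29.0, 44.0 and 41.2 (-0.23 ± 0.22).

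The small heat shock proteins split. HSPB8 spanned 17.3 to 64.8 (median 44.5) in chondrocytes, against 4.77, 8.19 and 10.02 in CD146+ cells. Every chondrocyte library was above every CD146+ library, and the difference was 2.24 ± 0.42 (adjusted p = 0.0087, limma). Its pig 3 CD146+ value lay under the filter of 5, so HSPB8 would not have passed the filter without chondrocyte libraries. HSPB1, HSP27, went the other way, at 166 to 420 (median 252) in chondrocytes and 811, 1087 and 437 in CD146+ cells, where pig 5 lay just above the highest chondrocyte library (-1.47 ± 0.40, adjusted p = 0.030, limma). HSPB6, HSP20, was listed at or near the lowest value in all 3 CD146+ libraries and lay from there to 15.7 in chondrocytes. HSPB6 entered the tests only through chondrocyte libraries. It passed the test (adjusted p = 0.029, limma), and did not with 15 single libraries (0.053) or with the pig as a random block among these (0.052), and since its fitted difference depends on the added constant no fold is given. A further HSPB6 entry, named so only in the reference list, lay at 3.82 to 36.01 in chondrocytes and 9.16 to 14.02 in CD146+ cells and did not pass (adjusted p = 0.30).

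HSP90 showed no called gene. HSP90AA1, the inducible cytosolic form, lay at 1208 to 2160 in chondrocytes and at 1408, 2517 and 1909 in CD146+ cells (-0.18 ± 0.28, 95% interval -0.85 to 0.49). HSP90AB1, the constitutive form, lay at 997 to 1672 in chondrocytes and 735, 1106 and 896 in CD146+ cells (0.47 ± 0.21, adjusted p = 0.13, limma). It passed with 15 single libraries counted as independent (0.47, adjusted p = 0.038) and with the pig as a random block among these (0.48, adjusted p = 0.030). Among mitochondrial chaperones HSPE1, the HSP10 lid, was higher at 388 to 652 (median 521) in chondrocytes, against 295, 335 and 332 in CD146+ cells, without overlap (0.67 ± 0.18, adjusted p = 0.032, limma). Its difference was 0.23 (adjusted p = 0.38) with the messenger RNA total alone as scale. HSPD1, the HSP60 barrel it closes, lay at 148 to 251 and at 120, 171 and 169 (0.34 ± 0.22, adjusted p = 0.28), and HSPA9, the mitochondrial HSP70, at 126 to 347 and at 142, 179 and 220 (0.10 ± 0.32). DNAJC11, of the mitochondrial membrane, was lower, at 1.18 to 5.33 in chondrocytes and 6.79, 8.88 and 10.1 in CD146+ cells (-1.21 ± 0.24, adjusted p = 0.011). It would not have passed the filter without the CD146+ libraries.

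The remaining called genes were DNAJC4 and DNAJC28, higher, and DNAJC13, lower. DNAJC4 spanned 5.48 to 16.5 (median 10.9) in chondrocytes, against 3.36, 3.79 and 3.78 in CD146+ cells, without overlap (1.31 ± 0.20, adjusted p = 0.0044, limma). Its CD146+ values all lay under the filter of 5, so it entered the tests only through chondrocyte libraries. DNAJC28 spanned 3.72 to 28.3 in chondrocytes and overlapped the CD146+ libraries at 6.02, 3.70 and 9.40 (adjusted p = 0.027). Without chondrocyte libraries it would not have passed the filter. It did not pass with 15 single libraries (0.051), with the pig as a random block among these (0.11) or with the messenger RNA total alone as scale (0.83, adjusted p = 0.11). DNAJC13, which acts with HSC70 on endosomes, spanned 6.45 to 8.54 in chondrocytes and lay at 11.2, 10.9 and 16.5 in CD146+ cells (-0.71 ± 0.21, adjusted p = 0.041). Across the 45 genes 6 lay wholly above and 8 wholly below the CD146+ libraries. Over all genes tested the shares were 14.8% above and 15.7% below. The chaperone counts include DNAJC4, HSPB8, DNAJB5 and DNAJC11, which passed the filter only with the group where they are high.

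**Figure D2:**
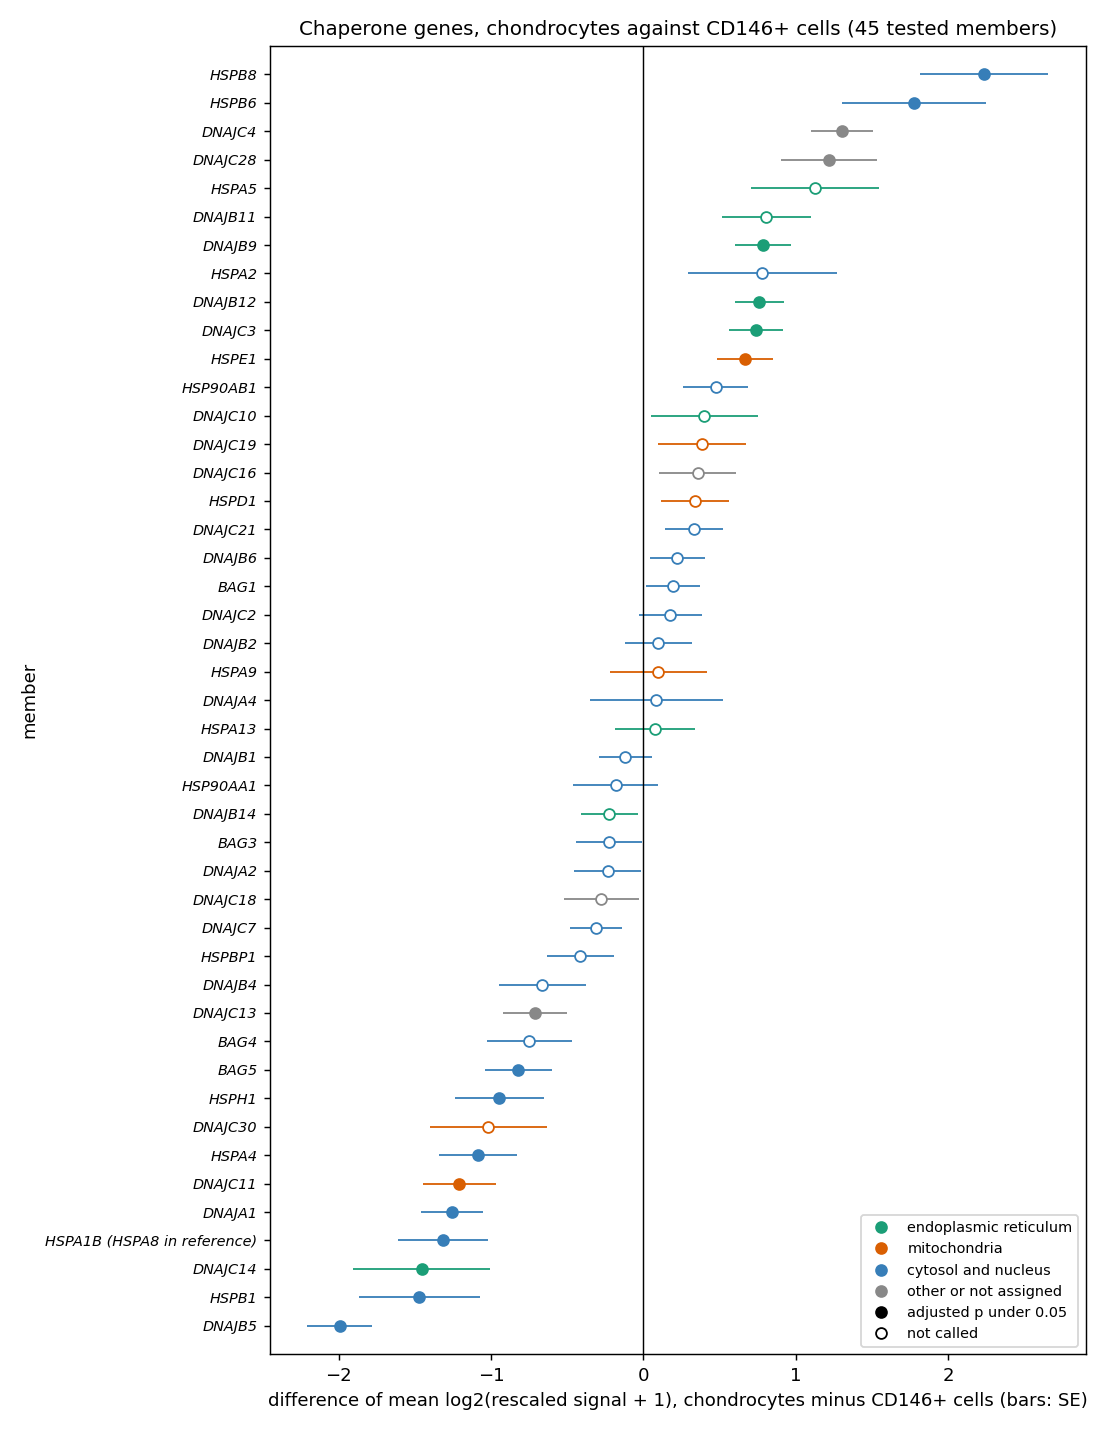
Difference of mean log2(rescaled signal + 1), chondrocytes minus CD146+ cells, for the 45 tested chaperone genes; bars are 1 SE, filled points passed the test and colours mark the compartment. Genes run from HSPB8 (2.24) to DNAJB5 (-1.99), with 8 filled points on the higher side and 10 on the lower side. The bar of HSPB6 depends on the added constant. BAG1, DNAJB6, HSPA9 and HSPD1, all open points, change sign when libraries are scaled to the messenger RNA total alone, and HSPA4, HSPH1 and BAG5 on the values as deposited.

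The calls rested on few libraries. Pig 5 alone gave both tissues, and its 4 chondrocyte libraries lay on the called side of its CD146+ library for 18 of 18 called chaperone genes and for 92.9% of all 3423 called genes. Those genes were called on the same libraries, so this is a description only. Leaving out 1 pig's chondrocytes or 1 CD146+ library, DNAJA1, DNAJB5, DNAJC11, DNAJC4 and HSPB8 passed in 6 of 6 fits and the other 13 lost the call at least once. Of those that passed in 6 of 6 fits, DNAJB5, DNAJC11, DNAJC4 and HSPB8 had passed the filter only with the group where they are high. HSPH1 and DNAJC13 lost the call in all 6, at adjusted p from 0.050 to 0.12 and from 0.051 to 0.12. The HSPA1B/HSPA8 entry lost it without pig 2 (0.057) or pig 6 (0.062), HSPA4 without pig 2 (0.061), pig 5 (0.052) or pig 6 (0.056), and DNAJB12 without pig 5 (0.052). DNAJB9 lost it without the pig 4 CD146+ library (0.056), and DNAJC3 without pig 2 (0.064), pig 5 (0.076) or pig 6 (0.060). HSPB1 passed only without the pig 5 CD146+ library and HSPE1, HSPB6 and DNAJC14 only without pig 2, and elsewhere reached adjusted p up to 0.088 (without pig 2), 0.093, 0.073 and 0.13 (each without pig 5). BAG5 passed only without the pig 3 or the pig 5 CD146+ library and DNAJC28 only without the pig 4 or the pig 5 CD146+ library, with up to 0.089 and 0.097 without pig 6. Without a filter on low values DNAJC13 (adjusted p = 0.059), DNAJC14 (0.090), DNAJC28 (0.052), HSPB1 (0.062), HSPH1 (0.077) and the HSPA1B/HSPA8 entry (0.052) did not pass.

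Counts of calls fell with fewer samples, to 3 higher without pig 5 and 3 lower without pig 6. The split between higher and lower depended on the scale. When libraries were scaled to the messenger RNA total alone, the median over all genes tested was -0.44 on the log2 scale, and 3 chaperone genes were higher and 17 lower, as 25.5% of all called genes were higher, against 49.6% on the main scale. On the values as deposited the median over all genes was 0.59, and 1 chaperone gene was higher and 0 lower of 36 tested (7 at an unadjusted p under 0.05). Differences given here are thus relative to the typical gene.

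Partner genes outside the name rule were grouped by function. Their values are given on the main scale only, and whether their calls hold on the other scales was not tested. Of 13 tested HSP70 and HSP90 co-chaperones, 0 were higher and 3 lower: CHORDC1, an HSP90 partner (-1.45 ± 0.16, adjusted p = 0.0012), STIP1, which links HSP70 to HSP90 (-1.04 ± 0.22, adjusted p = 0.012), and ST13, an HSP70 partner (adjusted p = 0.015, all limma). ST13 passed the filter only with the CD146+ libraries, at 23.8, 5.31 and 12.1. In chondrocytes it ran from 0.00078, at the lowest value of the table, to 10.1. Its fitted difference depends on the added constant, so no fold is given. STIP1 lay at 12.1 to 19.6 in chondrocytes and at 27.3, 42.8 and 30.5 in CD146+ cells. Of 12 genes of the cytosolic chaperonin TRiC and its helper prefoldin, 0 were higher and 2 lower, CCT8 (-1.04 ± 0.23) and PFDN4 (-1.18 ± 0.24). Of 17 other endoplasmic reticulum folding genes, 6 were higher and 1 lower, with a median of 0.72. FKBP10, a prolyl isomerase of collagen folding, averaged 68.4 in chondrocytes and 4.02 in CD146+ cells (3.75 ± 0.20, adjusted p = 9.11e-05), and its relative FKBP14 96.4 and 13.4 (2.90 ± 0.42). MESDC2, a chaperone of lipoprotein receptors, averaged 102 and 33.1 (1.59 ± 0.19), and CRELD2 was the lower gene (3.94 and 13.2). FKBP10 would not have passed the filter without the chondrocyte libraries, nor CRELD2 without the CD146+ libraries. The directions of FKBP10 and CRELD2 are thus not independent of the filter.

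Of 16 genes of the unfolded protein response, which raises many of the chaperones of the endoplasmic reticulum under stress, 6 were higher and 0 lower, with a median of 0.54. ASNS and TRIB3, targets of the ATF4 branch, averaged 144 and 7.33 in chondrocytes and 26.8 and 1.94 in CD146+ cells. CREB3L1 and CREB3L2, membrane-bound transcription factors, averaged 29.7 and 14.9 in chondrocytes and 3.88 and 6.02 in CD146+ cells. TRIB3 and CREB3L1 would not have passed the filter without the chondrocyte libraries, so their direction is not independent of the filter. Among all genes 17.1% were higher and 17.3% lower, so the 6 of 17 and 6 of 16 are counts beside that share and were not tested as sets.

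Of the heat shock factors, which switch on many of these genes, HSF1 and HSF2 did not pass, and HSF4 was lower at 0.00116 to 19.9 in chondrocytes and 68.8, 53.8 and 33.7 in CD146+ cells (-2.96 ± 0.38, adjusted p = 0.0021, limma). Of 7 mitochondrial proteostasis genes 0 were called in either direction, and CRYAB, a small heat shock protein under another name, did not pass (-1.12 ± 0.52). Of 18 immediate early genes, which respond to tissue dissociation, 5 were higher and 4 lower, with FOS at 5125 in chondrocytes and 590 in CD146+ cells and GADD45B at 95.9 and 207. Their part in the chaperone differences was not tested.

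Each chondrocyte population was next set against the same 3 CD146+ libraries, so the 4 comparisons are not independent and their values stand side by side without a test between them. ITGA4+BMPR1B+ cells had 7 chaperone genes higher and 8 lower of 45, where 35.9% of all genes were called (18% higher and 17.9% lower). ITGA4+BMPR1B- cells had 5 higher and 9 lower (31.7% of all genes, 16.2% and 15.5%). ITGA4-BMPR1B+ cells had 9 and 8 (36.5%, 18.6% and 17.9%), and ITGA4-BMPR1B- cells 9 and 8 (33.1%, 17.5% and 15.6%). All 3 libraries of ITGA4+BMPR1B+ cells lay above the CD146+ libraries for 7 chaperone genes and below for 10 (all genes 22% and 23.5%), those of ITGA4+BMPR1B- cells for 8 and 11 (21.2% and 22.5%), of ITGA4-BMPR1B+ cells for 13 and 13 (24.5% and 25.3%) and of ITGA4-BMPR1B- cells for 12 and 13 (24.3% and 25.2%). HSPB8, HSPE1, DNAJC3 and DNAJC4 were higher in 4 of 4 populations, and DNAJB5, DNAJA1, HSPA4, HSPB1, DNAJC13 and the HSPA1B/HSPA8 entry lower in 4 of 4, where 12.8% of all genes were higher and 11.4% lower in 4 of 4. HSPE1 and DNAJC3 lost the call in all 4 populations with the messenger RNA total alone as scale, and DNAJC4 in ITGA4+BMPR1B+ and ITGA4-BMPR1B- cells (adjusted p = 0.080 and 0.11). On the scale used here HSPB8, DNAJB5, DNAJA1, HSPA4 and the HSPA1B/HSPA8 entry passed in every population in each of the 6 fits that left out 1 library, and HSPE1, DNAJC3, DNAJC4, HSPB1 and DNAJC13 lost the call in at least 1 population. DNAJB5, DNAJC4 and HSPB8 had passed the filter only with the group where they are high. In all, 21 genes were called in some population (all genes 46.2%) and 24 in none, and 0 were called in opposite directions. The number higher in ITGA4-BMPR1B- cells fell to 3 without the pig 3 CD146+ library, 4 without its own pig 5 and 5 without its own pig 2. In ITGA4+BMPR1B+ cells it fell to 4 without their pig 5 library or the pig 3 CD146+ library, and in ITGA4-BMPR1B+ cells to 6 without their pig 2 library or the pig 3 CD146+ library.

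**Figure D3:**
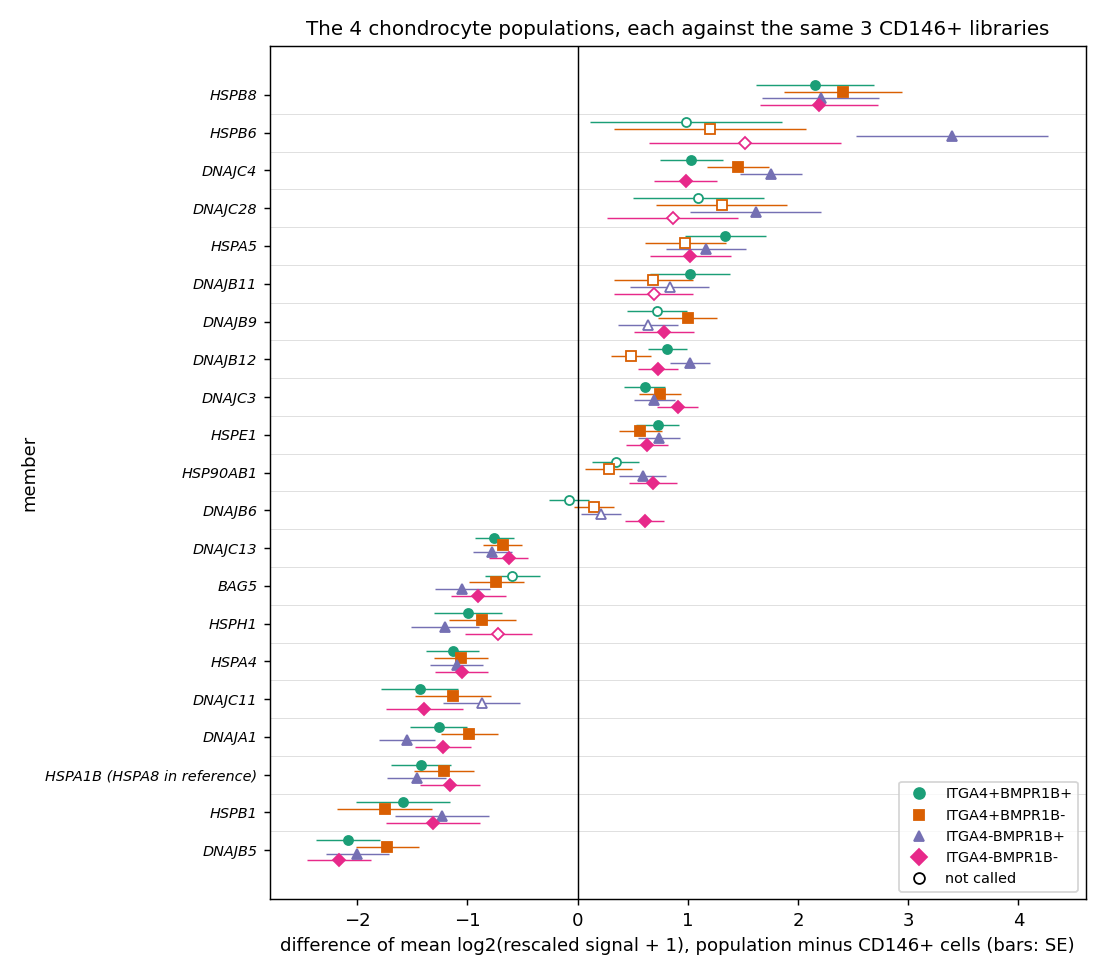
Difference of mean log2(rescaled signal + 1) from CD146+ cells for the 21 chaperone genes called in at least 1 chondrocyte population; bars are 1 SE and open symbols did not pass. The 4 symbols of a gene lie on one side of 0 except for DNAJB6, which runs from -0.08 in ITGA4+BMPR1B+ cells to 0.61 in ITGA4-BMPR1B- cells. With the messenger RNA total alone as scale HSP90AB1 lies below 0 in both ITGA4+ populations and DNAJB6 in every population but ITGA4-BMPR1B- cells, and on the values as deposited HSPA4, HSPH1, DNAJA1, BAG5 and the HSPA1B/HSPA8 entry lie above 0 in at least 1 ITGA4+ population.

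In these fits, which pooled the spread of 15 libraries, HSPA5 passed in 3 populations. ITGA4+BMPR1B+ cells held 3464, 4564 and 2490 in pigs 2, 5 and 6, and ITGA4+BMPR1B- cells 2574, 3584 and 2005. ITGA4-BMPR1B+ cells held 3479, 2884 and 2710, and ITGA4-BMPR1B- cells 3169, 2786 and 2304. Pig 6 was lowest in every population. The differences were 1.34 (adjusted p = 0.012), 0.98 (0.058), 1.16 (0.025) and 1.02 (0.048) in that order, each ± 0.37 (limma). The first lost its call without its pig 5 library (adjusted p = 0.052) or the pig 3 CD146+ library (0.051). The second passed without the pig 4 CD146+ library (1.37, adjusted p = 0.011) and with the pig as a random block (1.03, adjusted p = 0.024). The third lost it without its own pig 2 or pig 5 or the pig 3 or pig 5 CD146+ library, at up to 0.11, and the last passed only without the pig 4 CD146+ library, at up to 0.20 otherwise. All 3 calls were lost with the messenger RNA total alone as scale, at 0.95 (adjusted p = 0.058), 0.59 (0.21) and 0.64 (0.20), and without a filter the third and the last (0.055 and 0.098).

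HSP90AB1 passed in the ITGA4- populations, with 1672, 1378 and 1078 in ITGA4-BMPR1B+ cells (0.59 ± 0.22, adjusted p = 0.049) and 1652, 1547 and 1183 in ITGA4-BMPR1B- cells (0.68 ± 0.22, adjusted p = 0.027). ITGA4+BMPR1B+ cells held 1214, 1213 and 1017 (0.35) and ITGA4+BMPR1B- cells 1065, 997 and 1232 (0.28), which did not pass. Both calls were lost without their own pig 2 or pig 5 library or without the pig 3 or pig 5 CD146+ library, at adjusted p up to 0.17 and 0.11. DNAJB6 passed in ITGA4-BMPR1B- cells alone, at 57.1, 64.8 and 50.4 against 36.3, 34.0 and 41.7 in CD146+ cells (0.61 ± 0.18, adjusted p = 0.020), and lost that call without their pig 2 or pig 5 or the pig 3 or pig 4 CD146+ library, at up to 0.087. DNAJB11 passed in ITGA4+BMPR1B+ cells (25.1, 61.0 and 47.0, 1.02 ± 0.36, adjusted p = 0.043), lost the call without their pig 5 or pig 6 or the pig 3 or pig 4 CD146+ library, at up to 0.16, and passed in ITGA4-BMPR1B+ cells only with the pig as a random block (0.88, adjusted p = 0.028). These calls were lost too with the messenger RNA total alone as scale, at 0.016 and 0.30 for HSP90AB1 (adjusted p = 0.97 and 0.33), 0.23 for DNAJB6 (0.39) and 0.65 for DNAJB11 (0.21), and without a filter so were those of HSP90AB1 in ITGA4-BMPR1B+ cells (0.082) and of DNAJB11 (0.066). HSPB6 passed in ITGA4-BMPR1B+ cells, at 7.11, 7.82 and 15.7 (adjusted p = 0.0084), against CD146+ values at or near the lowest of the table. The further HSPB6 entry did not pass there (0.79 ± 0.58, adjusted p = 0.32, limma). Whether these genes differ between populations is asked by the sort comparisons that follow.

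Within cartilage, the sorts asked whether cells with BMPR1B or ITGA4 on their surface differ from cells without it. No chaperone gene was called for BMPR1B: 0 of 45, where 0.211% of all genes (21) were called (0.131% higher and 0.0803% lower), with 6 chaperone genes and 982 of all 9959 genes at an unadjusted p under 0.05 (limma). With the pig as a block, which fits these libraries taken from the same animals, 267 genes were called (2.68%, 1.21% higher and 1.47% lower) and 0 chaperone genes, with 9 at an unadjusted p under 0.05 against 1831 of all genes. The transcripts of the sorted proteins were themselves low, BMPR1B at most 0.153, in an ITGA4+BMPR1B- library, and ITGA4 at most 1.40 in any chondrocyte library. The count over all genes was 0 without the 4 libraries of pig 5 or of pig 6, 26 without the ITGA4+BMPR1B- and 40 without the ITGA4-BMPR1B+ library of pig 2, and 1 to 6 in the other fits without 1 library.

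The 6 genes with the smallest p for BMPR1B can be given as values only. DNAJA4, a cytosolic J-domain protein, had 3.80, 1.70 and 3.46 in ITGA4+BMPR1B+ cells and 3.15, 0.72 and 4.24 in ITGA4-BMPR1B+ cells. In cells without BMPR1B it had 4.37, 9.36 and 5.38 (ITGA4+) and 5.48, 4.89 and 5.82 (ITGA4-). It was the one chaperone gene whose 6 BMPR1B+ libraries all lay below the 6 BMPR1B- libraries, as 0.512% of all genes did (0.592% lay above). All 6 BMPR1B+ values lay under the filter of 5, which BMPR1B- and CD146+ libraries passed, so this separation is not independent of the filter. The difference was -0.90 ± 0.30 (adjusted p = 0.32, limma). HSPA2, a cytosolic HSP70, averaged 80.2 in BMPR1B+ and 123 in BMPR1B- chondrocytes (-0.66 ± 0.22, adjusted p = 0.31). DNAJB2 averaged 9.26 and 14.2 (-0.55 ± 0.18, adjusted p = 0.29), BAG3 28.2 and 36.5 (-0.37 ± 0.13), DNAJB6 39.6 and 49.5 (-0.31 ± 0.13) and DNAJB12 26.4 and 21.3 (0.31 ± 0.13). With the block their adjusted p lay between 0.10 for DNAJB6 and BAG3 and 0.23 for DNAJB12.

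The intervals given here are from the fit without the pig block, so differences between pigs stay in their spread. Pig took 81.6% of the variance of HSP90AA1 and 52.2% of that of HSPA5 over the chondrocyte libraries. For BMPR1B the 95% interval of HSPA5 ran from -0.19 to 0.69, of the HSPA1B/HSPA8 entry from -0.61 to 0.10, of HSP90AA1 from -0.42 to 0.38, of HSP90AB1 from -0.34 to 0.32 and of DNAJB1 from -0.34 to 0.36. Endothelial markers were lower in BMPR1B+ cells for 7 of 7 tested genes by sign, with a median of -1.33 and none called, and cartilage markers higher for 10 of 10 by sign (median 0.82, 1 called). With the block 6 cartilage markers were higher and 1 endothelial marker lower. Their part in the chaperone values was not tested.

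For ITGA4, 0 of 45 chaperone genes were called, as was 0.01% of all genes (1 of 9959), with 2 chaperone genes and 565 of all genes at an unadjusted p under 0.05 (limma). DNAJB6 had the smallest p. Its values were 38.4, 38.2 and 29.8 in ITGA4+BMPR1B+ cells and 47.0, 39.8 and 37.8 in ITGA4+BMPR1B- cells, and without ITGA4 50.6, 43.6 and 36.7 (BMPR1B+) and 57.1, 64.8 and 50.4 (BMPR1B-). ITGA4-BMPR1B- cells were highest in each pig and the groups overlapped (-0.37 ± 0.13, adjusted p = 0.82 with limma, and 0.20 with the block). DNAJC21, which acts on ribosome assembly in the cytosol and nucleus, averaged 14.4 in ITGA4+ and 18.2 in ITGA4- chondrocytes (-0.33 ± 0.14, adjusted p = 0.87). HSP90AB1 averaged 1123 and 1418 (-0.32 ± 0.15, adjusted p = 0.87). On the values as deposited these 3 differences turned to 0.15, 0.11 and 0.31, where the median over all genes was 0.32. With the block 0 chaperone genes were called, with 6 at an unadjusted p under 0.05 against 1183 of all genes. Endothelial markers were positive for 6 of 7 (median 0.65) and cartilage markers for 1 of 10 (median -0.22), none called, and their part was not tested. In the fit without the block the 95% interval was -0.38 to 0.51 for HSPA5 and -0.36 to 0.35 for the HSPA1B/HSPA8 entry. The interaction, which asks whether the BMPR1B difference depends on ITGA4, called 0 of 45 (0.01% of all genes), with DNAJC4 alone at an unadjusted p under 0.05 (-1.20 ± 0.43) beside 174 of all genes.

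The animals were compared over the same 12 chondrocyte libraries. Of 45 chaperone genes 8 differed between pigs 2, 5 and 6 (17.8%) in an F test with population as a covariate, where 16.7% of all genes did. Pig took a median of 30.0% of the variance of a chaperone gene (31.2% for all genes) and population 20.4% (24.1%). These raw shares are not adjusted for the number of pigs or populations. With 12 libraries part of each arises without any difference, and more for the 4 populations than for the pigs. HSPA9 stood at 311, 243, 347 and 269 in the 4 libraries of pig 2, against 188, 157, 150 and 178 in pig 5 and 146, 126, 156 and 139 in pig 6. Every pig 2 library was above every other (adjusted p = 0.0021, limma), and pig took 89.5% of its variance. HSPB8 stood at 24.8, 21.9, 17.3 and 21.3 in pig 2, against 40.8, 57.3, 63.6 and 42.6 in pig 5 and 46.5, 64.8, 47.4 and 56.3 in pig 6, so pig 2 lay below the others without overlap (adjusted p = 0.0045).

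HSP90AA1 averaged 1322 in pig 2, 1830 in pig 5 and 1940 in pig 6 (adjusted p = 0.0088), and HSPH1 14.01, 20.2 and 23.3 (0.0097). DNAJB4 averaged 25.1, 34.7 and 50.5 (0.0089), HSPB1 187, 296 and 349 (0.049), DNAJC10, which breaks disulfides in the endoplasmic reticulum, 22.5, 36.1 and 33.3 (0.026), and HSPA13 112, 102 and 66.8 (0.034). HSPA9, HSPB8, HSP90AA1, DNAJB4 and HSPH1 passed in all 12 fits that left out 1 library. DNAJC10, HSPA13 and HSPB1 lost the call in 7, 8 and 10 of them, at adjusted p up to 0.090 without ITGA4-BMPR1B+ pig 2, 0.11 without ITGA4+BMPR1B+ pig 6 and 0.13 without ITGA4-BMPR1B+ pig 2. HSPA13 also lost it with the messenger RNA total alone as scale (0.17), and HSPA13 and HSPB1 without a filter (0.066 and 0.10). Pig 2 also differed in its messenger share, 2.03 to 4.15% against 11.7 to 22.1%, so animal and messenger share cannot be told apart here. The count was 5 without the pig 2 library of ITGA4+BMPR1B+ or ITGA4-BMPR1B+ cells or the pig 6 library of ITGA4-BMPR1B+ or ITGA4-BMPR1B- cells. Pig 2 minus the mean of pigs 5 and 6 was 0.91 for HSPA9 and 0.45 for HSPA13, but -1.42 and -1.63 on the values as deposited, where 34 of 36 chaperone genes were called and the median over all genes was -1.17. Immediate early genes moved with the animals too, with 12 of 18 called, 3 of them higher and 9 lower in pig 2, and their part was not tested. The largest raw share of variance between populations among the tested chaperone genes was 70.9%, for DNAJB6. DNAJB2 at 61.7% and DNAJC2 at 60.2% came next. No chaperone gene was called for BMPR1B, ITGA4 or their interaction, so these shares are given as a description only.

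**Figure D4:**
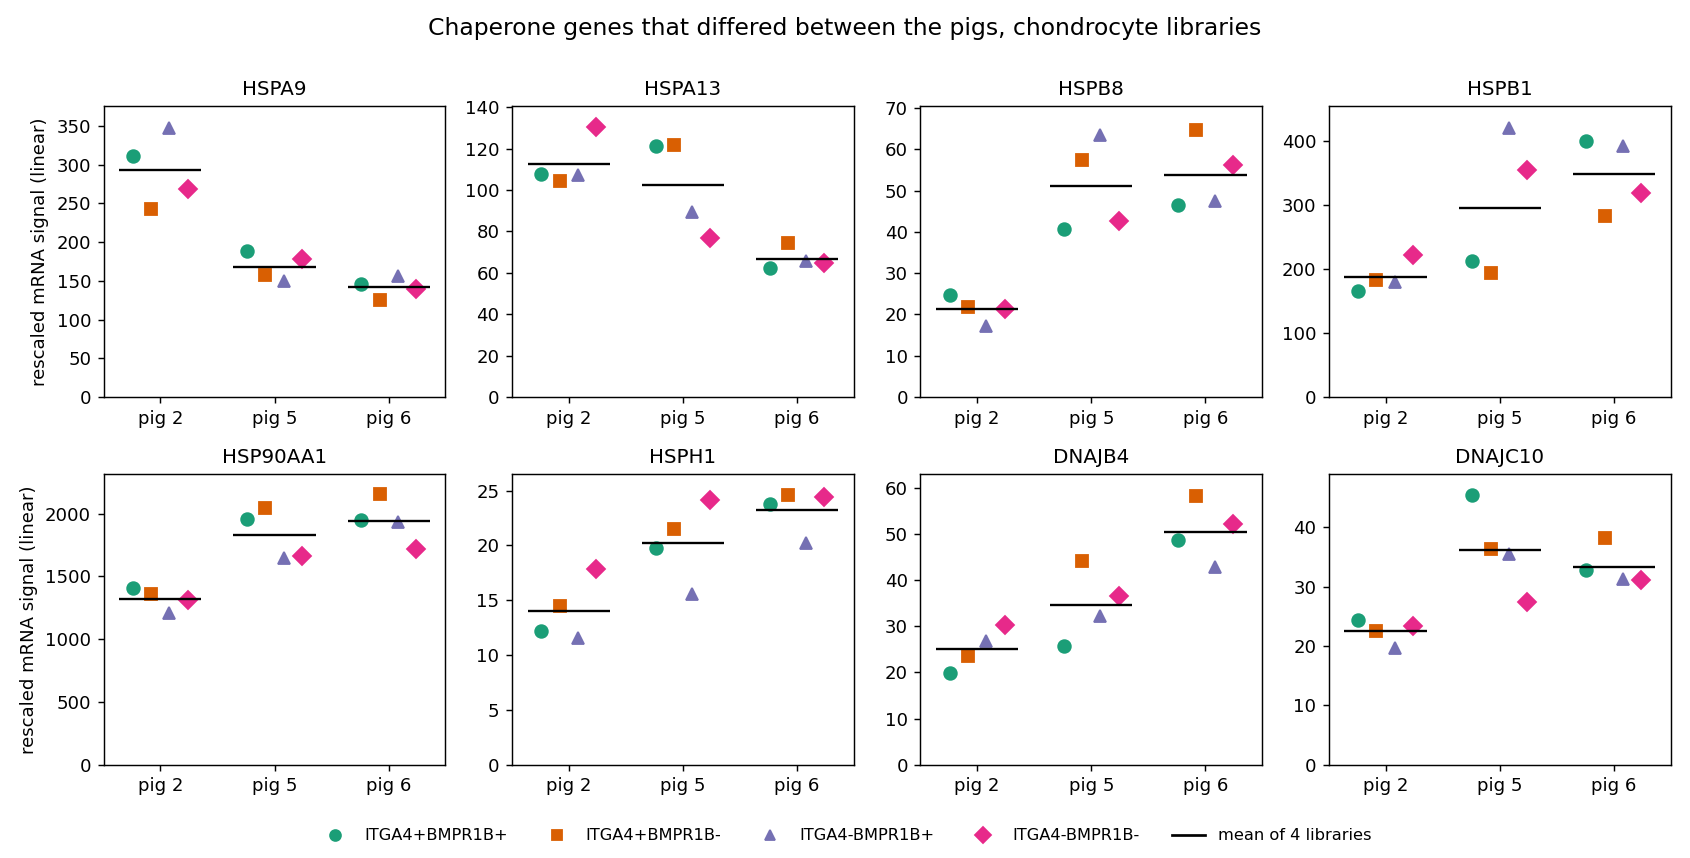
Rescaled messenger RNA signal (linear axis from 0) of the 8 chaperone genes that differed between the pigs; each point is 1 chondrocyte library, shaped by population, and each line the mean of 4. HSPA9 is highest in pig 2 (243 to 347) and HSPB8 lowest there (17.3 to 24.8). On the values as deposited HSPA9 and HSPA13 are lower in pig 2.

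Beyond the name rule, 9 further rows carry a chaperone symbol in the reference list. DNAJC22, a membrane J-domain gene, lay at 75.6 to 216 in chondrocytes, against 4.01, 7.73 and 4.33 in CD146+ cells (4.27 ± 0.31, adjusted p = 0.00024, limma), beside 2.24 for HSPB8, the widest among the 45 tested genes. DNAJC25 lay at 15.2 to 27.1 and at 3.13, 7.21 and 7.60 (1.75 ± 0.31, adjusted p = 0.0071). HSPA12B, a distant HSP70 relative known from endothelium, lay at or under 0.759 in chondrocytes and at 29.0, 21.5 and 5.48 in CD146+ cells (-3.65 ± 0.57, adjusted p = 0.0044). HSPA12B entered the tests only through the CD146+ libraries. DNAJC22 and DNAJC25 would not have passed the filter without the chondrocyte libraries. Both HSPA12B and the endothelial markers were thus high in the CD146+ libraries.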

How the data were processed

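The authors aligned paired-end reads of NuGen Ovation SoLo libraries with STAR and quantified them in Partek against the pig reference with Ensembl release 84. Tool versions and the normalization were not given in the sources used here. The deposited values are signal, summing to 629194 or 629195 in each of 15 libraries, with 0.0001 as the lowest value, so counting error could not be computed. Here 1116 structural and 37 mitochondrial rows were left out, leaving 24169, and libraries were scaled by median ratios over 11302 genes to an average total of 1e+06. A gene entered the tests with a value over 5 in 3 or more libraries (9959 genes). The test was limma 3.58.1 (R 4.3.3, trend) on log2(value + 1), Benjamini-Hochberg threshold 0.05. Fold changes on that scale understate changes of low genes. Chondrocytes against CD146+ cells used pig means (3 against 3), single populations a fit of 15 libraries, and the sort and pig comparisons the 12 chondrocyte libraries. Scripts were tested on simulated data. Figures were drawn with matplotlib 3.10.9.

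Genes named in each comparison were a fixed set of central chaperones, the members past the threshold with the smallest p, and up to 4 genes with the smallest p from each partner list. Other members are named as part of the family. Members and lists were chosen with earlier results of these data known, and the compartment grouping after the values were seen. Alternatives were the messenger RNA total alone, the values as deposited, pseudocounts of 0.1 and 5, no filter, leaving out libraries, and the pig as a block. The labels give the pig number, so chondrocyte libraries of 1 pig are paired. After removal of population means they correlated at 0.133 to 0.412 (median 0.311), those of different pigs at a median of -0.212, and 12 of 12 were closest to a library of their own pig.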

Additional observations from a re-analysis of the deposited data

How the results depend on the processing

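On the values as deposited the genes called against CD146+ cells numbered 691 for all chondrocytes, 321 for ITGA4+BMPR1B+, 267 for ITGA4+BMPR1B-, 225 for ITGA4-BMPR1B+ and 173 for ITGA4-BMPR1B- cells. Chaperone genes numbered 1 higher and 0 lower for all chondrocytes and 0 and 0 in each population. BMPR1B then had 0 genes, ITGA4 10, the interaction 4 and the pigs 6372 genes with 34 chaperone genes. Differences that changed sign there, for all chondrocytes, were BAG3 0.56, BAG5 0.24, DNAJB1 0.83, HSP90AA1 0.85, HSPA4 0.097 and HSPH1 0.19. In ITGA4+BMPR1B+ cells they were DNAJA1 0.15, DNAJB6 0.85, HSPA4 0.24 and HSPH1 0.33, and in ITGA4+BMPR1B- cells BAG5 0.55, DNAJA1 0.42, HSPA1B/HSPA8 0.14, HSPA4 0.32 and HSPH1 0.40. For ITGA4 they were DNAJB6 0.15, DNAJC21 0.11 and HSP90AB1 0.31, and for pigs HSPA13 -1.63 and HSPA9 -1.42. With the messenger RNA total alone, 3 chaperone genes were higher and 17 lower for all chondrocytes, 1 and 14 for ITGA4+BMPR1B+, 3 and 19 for ITGA4-BMPR1B+, 2 higher for ITGA4+BMPR1B- and 1 higher for ITGA4-BMPR1B- cells, and BMPR1B had 1 gene. BAG1 (-0.23), DNAJB6 (-0.21), HSPA9 (-0.34) and HSPD1 (-0.097) changed sign for all chondrocytes, HSP90AB1 in ITGA4+BMPR1B+ (-0.044) and ITGA4+BMPR1B- cells (-0.13), and DNAJB6 in ITGA4+BMPR1B- (-0.25) and ITGA4-BMPR1B+ cells (-0.35). Without a filter 5 chaperone genes were lower in chondrocytes, and 3 genes were called for BMPR1B, 2 for ITGA4 and 2 for the interaction. A pseudocount of 5 left 2 genes for BMPR1B, and one of 0.1 left 2 for ITGA4 and 0 for the interaction. The cause was not tested. With the pig as a block (pairing) BMPR1B had 267 genes, and HSPA9 for all chondrocytes was -0.0028. For all chondrocytes the calls of DNAJB11, HSPA5, HSP90AB1, HSPB6 and DNAJC28 moved with 15 single libraries in place of pig means, with or without the block, and that of DNAJC14 only without it. In single populations, where the block alone was added, it moved HSPA5 in ITGA4+BMPR1B-, DNAJB11 in ITGA4-BMPR1B+ and DNAJC28 in ITGA4-BMPR1B+ cells (1.49, adjusted p = 0.079, limma), and of the other named results none. Of the calls of named genes, 29 were lost with the messenger RNA total alone and 18 without a filter. Leaving out 1 library or pig gave 2163 to 3025 genes for all chondrocytes, with 3 to 7 chaperone genes higher and 3 to 7 lower, and 4 to 7 higher in ITGA4+BMPR1B+, 6 to 9 in ITGA4-BMPR1B+ and 3 to 8 in ITGA4-BMPR1B- cells. It gave 0 to 40 genes for BMPR1B, 0 to 6 for ITGA4, 0 to 3 for the interaction, and 1023 to 1461 genes and 5 to 8 chaperone genes for pigs. HSP90AA1 ran from -0.39 without the pig 3 CD146+ library to 0.025 without that of pig 4, HSPA9 turned to -0.20 without pig 2 and -0.06 without the pig 3 CD146+ library, and DNAJB6 in ITGA4+BMPR1B+ cells ran from -0.14 without the pig 4 CD146+ library to 0.041 without their own pig 6, with 0.0041 without the pig 5 CD146+ library. Over all leave-outs of the named genes, 152 results lost the call, 3 gained it, 5 changed sign and 686 kept both. Read depth is unknown, so detection limits for the 17 untested genes cannot be given.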
